A study of Mus musculus with 20 samples.

Results

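Nr1i3, the gene of the constitutive androstane receptor CAR, was followed here together with 3 Cyp2b genes (Cyp2b9, Cyp2b10, Cyp2b13) and 6 Cyp3a genes (Cyp3a11, Cyp3a13, Cyp3a16, Cyp3a25, Cyp3a41a, Cyp3a44). These 10 genes were taken by symbol out of the 28100 genes listed in either of the 2 deposited count tables, and all 10 were listed in both tables. The livers came from male C57BL/6J mice that received an AAV8 vector intravenously at 8 weeks of age and were kept on the diet the submitters call HF/HS until 25 weeks. Every vector used the thyroxine binding globulin promoter, which is active in hepatocytes, so that all 4 groups shared the virus, the promoter and the diet. The vectors carried the Pklr coding sequence (PKLR, the overexpression group), GFP (its control), a short hairpin RNA against Pklr (shPKLR, the knockdown group) or a hairpin against firefly luciferase (shLUC, its control), with 5 livers each. Pklr encodes the liver pyruvate kinase of glycolysis.

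CAR is a nuclear receptor that pairs with the retinoid X receptors on DNA elements built from repeated AGNTCA half-sites, and phenobarbital-like compounds activate it. In mouse liver Cyp2b10 is its classical target, while Cyp3a11 is the classical target of the related pregnane X receptor PXR, the product of Nr1i2. The Cyp2b and Cyp3a enzymes are cytochromes P450 of the endoplasmic reticulum that oxidise drugs, steroids and bile acids. Several of the genes differ between the sexes in mouse liver. Cyp2b9, Cyp2b13, Cyp3a41a and Cyp3a44 are known as female-predominant, and Cyp3a16 is known mainly from the fetal and newborn liver.

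Total counts ran between 29933820 and 45413803 in 19 of the 20 libraries, and shPKLR replicate 4 held 167891680. Within each experiment the targeted gene followed the labels. Pklr stood between 378 and 913 CPM in PKLR livers and between 64.3 and 144 CPM in GFP livers, and between 25.4 and 83.3 CPM in shPKLR livers and 355 and 634 CPM in shLUC livers. CPM, the count of a gene scaled to a common library total, were computed with TMM scaling over all 20 livers. The 9 hepatocyte markers counted, out of a list of 10, summed to between 86095 and 119819 CPM in PKLR livers and between 93088 and 128767 CPM in GFP livers. Nothing in the labels numbers the animals beyond 1 liver per library, so the p-values measure the spread between these livers.

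**Figure D1:**
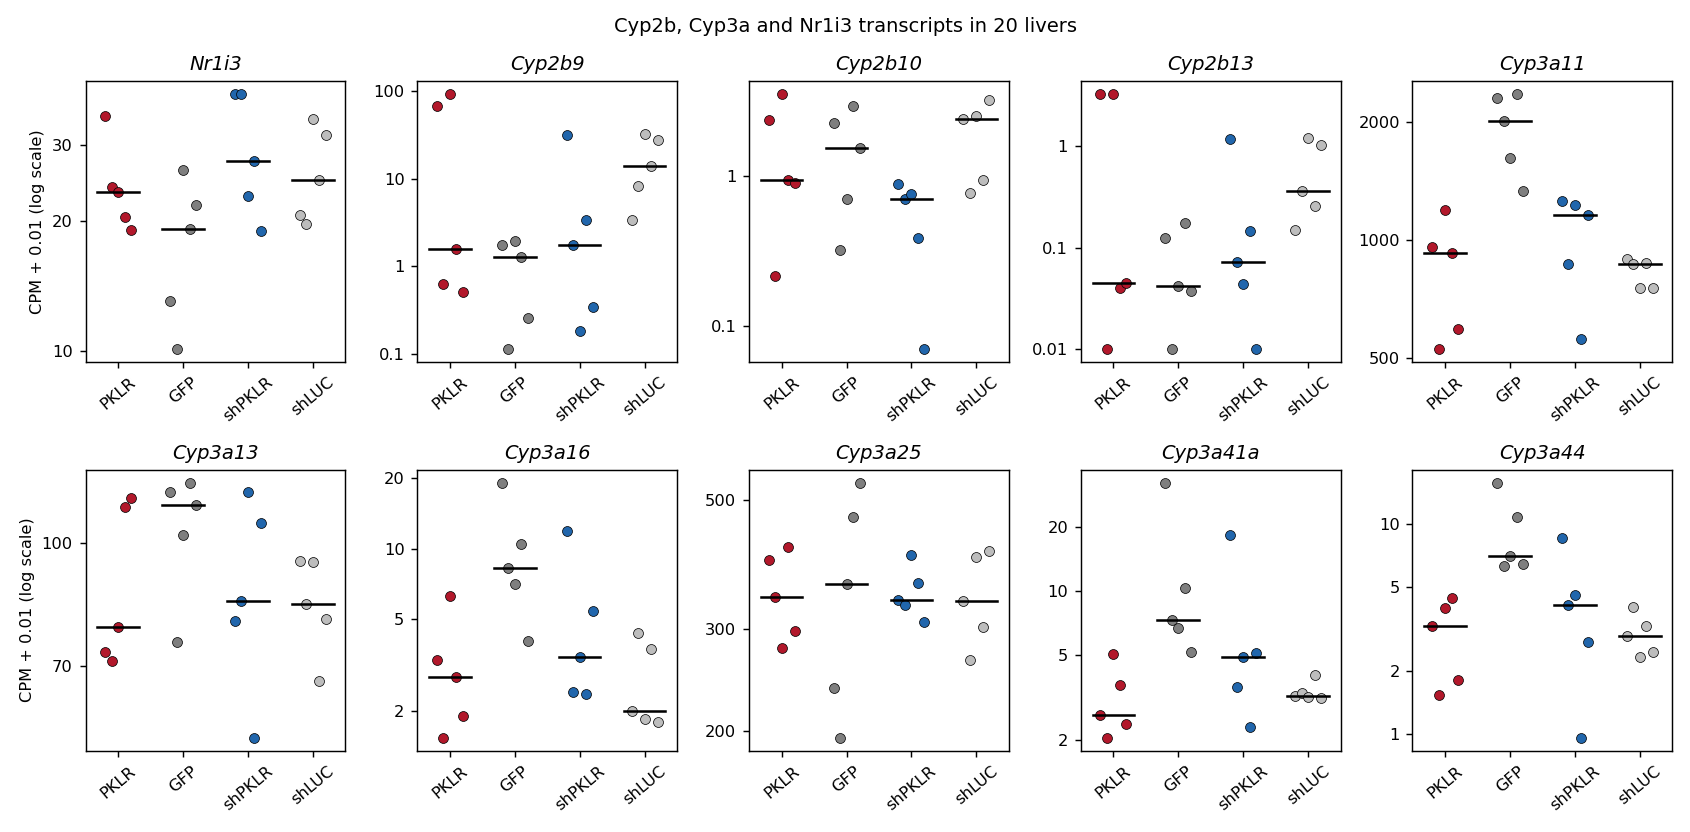
Level of each of the 10 genes in every liver, in CPM plus 0.01 on a log axis, with 1 point per liver and a bar at the group's median. Cyp3a11, Cyp3a41a and Cyp3a44 separate the PKLR livers from the higher GFP livers, and Cyp2b9 and Cyp2b13 are high in PKLR replicates 1 and 3.

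PKLR livers held less Cyp3a11 and less Cyp3a44 than GFP livers, and these were the members called by edgeR in the overexpression experiment. Of the 9 members tested, 0 rose and 2 fell, against 0.846% of all 15842 genes tested that fell and 1.19% that rose (edgeR quasi-likelihood test, Benjamini-Hochberg adjusted p under 0.05). Cyp2b13 did not pass the filter on low counts and was not tested. The median log2 fold change of the 9 members was -0.22, beside 0.01 over all genes tested. At an unadjusted p under 0.05 there were 5 members, the further ones being Cyp3a16, Cyp3a41a and Cyp2b9, beside 18.8% of all genes.

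Cyp3a11 encodes a major drug and steroid hydroxylase of mouse liver and lies at chr5:145854426-145879964 on the minus strand of GRCm38 (ENSMUSG00000056035). Its level was 960.3, 528, 1195, 925 and 596 CPM in the 5 PKLR livers, against 2297, 2009, 1615, 2354 and 1334 CPM in the GFP livers. The groups did not overlap, and the highest PKLR liver stood below the lowest GFP liver. The log2 fold change was -1.18 (SE 0.23, adjusted p = 0.0296 by edgeR's quasi-likelihood test), a 2.27-fold fall. The call was lost when any of 6 libraries was left out, with an adjusted p of 0.0653, 0.0593 and 0.0748 without GFP replicates 1, 2 and 4, and of 0.0509, 0.0543 and 0.0680 without PKLR replicates 1, 4 and 5. The log2 fold change in these 6 fits lay between -1.23 and -1.08, and the call was made by each of the other tools and settings tried.

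Cyp3a44 (chr5:145773983-145805874, minus strand, ENSMUSG00000054417) is a neighbour of Cyp3a11 whose transcript equals it at 78.2% of aligned positions. It was counted at 3.26, 1.53, 4.00, 4.43 and 1.80 CPM in PKLR livers and at 15.8, 6.28, 7.05, 10.8 and 6.45 CPM in GFP livers, again without overlap. The fall was 3.06-fold, with a log2 fold change of -1.61 (SE 0.35, adjusted p = 0.0466, edgeR). This call sat at the threshold. It remained in 1 of the 10 fits with a library left out, the one without GFP replicate 5, and the adjusted p in the 9 other fits lay between 0.0543 and 0.105. It was also lost with no filter on low counts, at an adjusted p of 0.0960, and in limma-voom, at 0.0602.

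Cyp3a41a and Cyp3a16 lay lower in PKLR livers without passing the test. Cyp3a41a (chr5:145694049-145720136, minus strand) had 2.60, 2.03, 5.06, 3.59 and 2.36 CPM in PKLR livers, against 32.5, 7.28, 6.71, 10.3 and 5.17 CPM in GFP livers. The 2 groups did not overlap, by a margin of 5.06 to 5.17 CPM, and GFP replicate 1 stood far above the others. Its log2 fold change was -1.98 (SE 0.53, adjusted p = 0.0881, edgeR), and -1.22 without GFP replicate 1. Cyp3a16 (chr5:145436309-145469723, minus strand) had 3.31, 1.53, 6.26, 2.79 and 1.90 CPM in PKLR livers, against 19.2, 8.23, 7.05, 10.4 and 4.01 CPM in GFP livers. PKLR replicate 3 overlapped the GFP range, and the log2 fold change was -1.61 (SE 0.46, adjusted p = 0.103, edgeR). DESeq2 called both, with an adjusted p of 0.00985 for Cyp3a41a and 0.0262 for Cyp3a16, and 1 fit of all 20 libraries called Cyp3a41a, at an adjusted p of 0.0495. Over the other settings the adjusted p reached 0.179 for Cyp3a41a and 0.208 for Cyp3a16.

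The reads of these genes cannot be fully separated. Of the 50-base windows of the Cyp3a41a transcript, 98.6% occur also in another transcript of the family, with 93.7% found in Cyp3a41b, which equals it at 99.7% of positions. The Cyp3a41b count was between 0.873 and 1.36 times the Cyp3a41a count in the 20 livers, and its log2 fold change was -1.94 (adjusted p = 0.102, edgeR), so that Cyp3a41a and Cyp3a41b are best read as 1 signal. For Cyp3a41b the groups overlapped, with PKLR replicate 3 at 5.36 CPM and GFP replicate 5 at 5.17 CPM. Shared windows made up 18.2% of the Cyp3a44 transcript, 14.7% of Cyp3a11 and 10.5% of Cyp3a16. The sources used here do not say how the authors counted reads that fit several genes. The summed level of Cyp3a11, Cyp3a16, Cyp3a41a, Cyp3a41b and Cyp3a44, most of it Cyp3a11, averaged 854 ± 281 CPM in PKLR livers and 1967 ± 463 CPM in GFP livers (SD, n = 5 each), a log2 ratio of means of -1.20.

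Cyp3a13 and Cyp3a25 did not pass the test. Cyp3a13 (chr5:137892932-137921619, minus strand), which is also known from the intestine, shared no 50-base window with another transcript of the family. It averaged 89.4 ± 21.3 CPM in PKLR livers and 105 ± 17.8 CPM in GFP livers (SD, n = 5 each), at a log2 fold change of -0.22 (SE 0.17, adjusted p = 0.524, edgeR). Cyp3a25 (chr5:145977194-146009618, minus strand), a further hepatic Cyp3a gene, had 394, 340.4, 278, 416 and 297 CPM in PKLR livers, against 238, 195, 359, 468 and 537 CPM in GFP livers. The PKLR range lay inside the GFP range, with a log2 fold change of -0.04 (SE 0.26, adjusted p = 0.944, edgeR). Of its paralogs, Cyp3a59 had a log2 fold change of -0.12 (adjusted p = 0.838) and Cyp3a57 of 0.09 (adjusted p = 0.905).

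The Cyp3a25 count was 45.0% of the Cyp3a11 count in the median PKLR liver and 19.9% in the median GFP liver, a difference of 1.26 on the log2 scale (two-sided exact permutation test, p = 0.0159, n = 5 each, where the smallest p that 5 against 5 livers allow is 0.00794). Adjusted over the 10 such ratio tests made in both experiments, this p became 0.159, which does not pass. For Cyp3a44 the count was 0.334% of that of Cyp3a11 in the median PKLR liver and 0.459% in the median GFP liver (log2 difference -0.43, exact permutation test, p = 0.119, n = 5 each). The same ratio differed by -0.40 for Cyp3a16 (exact permutation test, p = 0.198) and by -0.48 for Cyp3a41a (exact permutation test, p = 0.262). These ratios were added after the data were seen, and none of the 10 passed the correction.

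**Figure D2:**
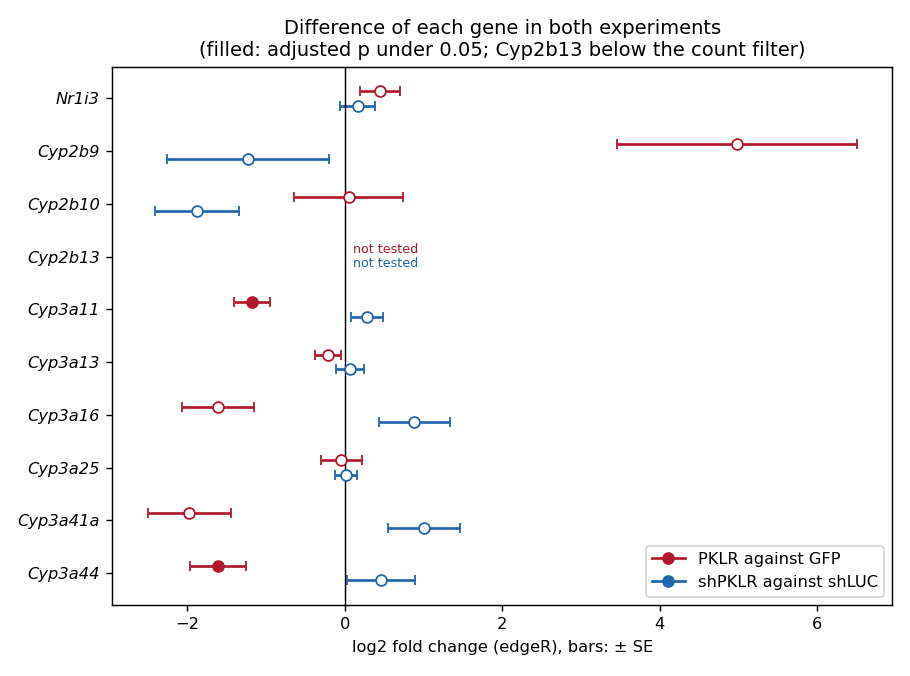
Log2 fold change of each gene with its standard error in PKLR against GFP livers (red) and in shPKLR against shLUC livers (blue). Filled points have an adjusted p under 0.05, which only Cyp3a11 and Cyp3a44 reach, both in the overexpression experiment; Cyp2b13 was not tested.

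The promoter windows of the Cyp3a genes, shown because Cyp3a11 and Cyp3a44 fell together while Cyp3a25 did not, run from 250 bases before to 50 bases after the RefSeq start (GRCm38.p6, minus strand, printed 5′ to 3′ along the gene). Capitals mark matches to the half-site AGNTCA on either strand and to TATAAA.
Cyp3a11, chr5:145879805-145880104: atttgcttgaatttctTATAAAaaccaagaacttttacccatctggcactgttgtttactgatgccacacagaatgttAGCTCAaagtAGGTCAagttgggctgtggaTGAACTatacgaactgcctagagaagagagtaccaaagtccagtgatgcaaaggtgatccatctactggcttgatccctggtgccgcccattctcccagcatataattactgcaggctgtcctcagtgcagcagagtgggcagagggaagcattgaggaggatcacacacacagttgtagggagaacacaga
Cyp3a44, chr5:145805825-145806124: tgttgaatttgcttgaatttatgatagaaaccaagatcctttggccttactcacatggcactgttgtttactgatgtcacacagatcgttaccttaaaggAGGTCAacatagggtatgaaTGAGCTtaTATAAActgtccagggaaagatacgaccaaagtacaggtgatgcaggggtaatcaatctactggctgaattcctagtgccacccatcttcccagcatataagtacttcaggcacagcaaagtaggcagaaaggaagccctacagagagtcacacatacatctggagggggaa
Cyp3a25, chr5:146009569-146009868: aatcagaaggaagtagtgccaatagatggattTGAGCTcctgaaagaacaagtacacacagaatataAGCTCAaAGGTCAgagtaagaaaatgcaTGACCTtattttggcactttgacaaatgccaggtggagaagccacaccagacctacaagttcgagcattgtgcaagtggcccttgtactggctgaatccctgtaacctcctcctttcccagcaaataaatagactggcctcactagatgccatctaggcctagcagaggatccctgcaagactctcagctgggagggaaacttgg
The Cyp3a11 window held 3 half-sites, and the pair at -172 and -162 formed a direct repeat with 4 bases between the half-sites, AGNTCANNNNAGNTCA, an arrangement found in 0.125% of the 32851 RefSeq promoters of this length on either strand. No other member's window held that repeat, and none of the 10 held the repeat with 3 bases between or the letters TTCNNNGAA. The repeat contains both of its half-sites by construction. In the Cyp3a44 window there were 2 half-sites, at -150 and -130, and in that of Cyp3a25 4 half-sites. A single half-site is common, being present in 46.6% of all promoters, and TATAAA is present in 13.6%. Aligned with each other, the windows of Cyp3a44 and Cyp3a41a were identical at 93.0% of positions, those of Cyp3a44 and Cyp3a16 at 93.4%, those of Cyp3a11 and Cyp3a44 at 71.2% and those of Cyp3a11 and Cyp3a25 at 52.9%. These matches are letters in a window and not measured binding sites.

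Between livers, Cyp3a11 and the 3 low genes moved together. After the mean of each group was subtracted from log2 CPM, the 20 livers gave r = 0.82 for Cyp3a11 with Cyp3a44 (permutation within groups, p = 0.00049; Spearman's rho 0.78, p = 0.00157), r = 0.79 with Cyp3a16 (p = 0.0006; rho 0.80, p = 0.00017) and r = 0.71 with Cyp3a41a (p = 0.00491; rho 0.80, p = 0.00106). The adjusted p for r over the 7 relations of this family was 0.0014, 0.0014 and 0.00859 in that order. Without the 2 livers farthest from the median of Cyp3a11, r was 0.69, 0.77 and 0.65. Within the 10 overexpression livers alone the relation to Cyp3a44 was r = 0.85, and within the 10 knockdown livers it was r = 0.84. The same values were 0.91 and 0.65 for Cyp3a16 and 0.70 and 0.74 for Cyp3a41a. The relations to Cyp3a25 (r = -0.22, permutation p = 0.35, rho -0.15) and to Cyp3a13 (r = 0.30, permutation p = 0.301, rho 0.24) did not pass. Shared reads could add to the first 3 relations, and their part was not tested.

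**Figure D3:**
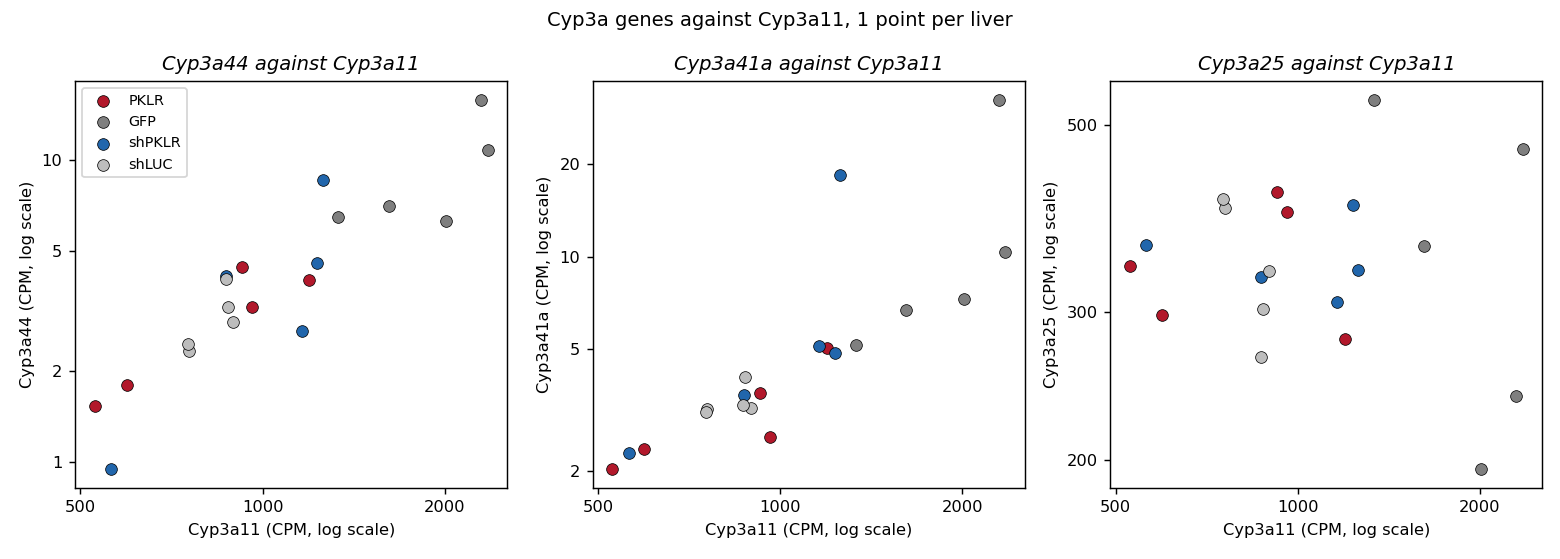
Cyp3a44, Cyp3a41a and Cyp3a25 against Cyp3a11, in CPM on log axes, with 1 point per liver. Cyp3a44 and Cyp3a41a climb with Cyp3a11 across all 4 groups, the GFP livers lying at the upper end, and Cyp3a25 does not.

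Of the genes whose liver-to-liver pattern was most like that of Cyp3a11 among 13254 genes, the first 3 were Wwtr1 (r = 0.88), which encodes the Hippo pathway coactivator TAZ, Rtn4 (r = 0.88), which encodes an endoplasmic reticulum shaping protein, and Ugt1a9 (r = 0.88), which encodes a drug-conjugating glucuronosyltransferase. Ugt1a9 stood at 19.3, 4.68, 21.0, 10.9 and 6.83 CPM in PKLR livers and at 32.8, 24.6, 26.0, 26.8 and 10.4 CPM in GFP livers. For Cyp3a25 the first was its paralog Cyp3a59 (r = 0.88), and for Cyp3a13 it was Fga (r = 0.89), the fibrinogen alpha chain gene. Vrk2, a kinase gene, was the first for Cyp3a44 (r = 0.86). These values rank the 13254 genes outside the members with a mean of at least 1 CPM over the same 20 livers. They are given without a test.

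In the knockdown experiment edgeR called none of the members. With 9 members tested, 0 rose and 0 fell, beside 0% and 0.00641% of all 15611 genes tested. Pklr itself was the 1 gene called by edgeR, so the absence of calls does not set the members apart from other genes. At an unadjusted p under 0.05 there were 2 members, Cyp2b10 and Cyp3a41a, beside 15.0% of all genes; DESeq2 called 1 member, Cyp2b10, and limma-voom 0. The median log2 fold change of the 9 members was 0.16, beside 0.02 over all genes. Cyp3a11 had 1256, 871, 1231, 562 and 1161 CPM in shPKLR livers, against 895, 869, 757, 876 and 754 CPM in shLUC livers. Both the highest and the lowest of these 10 values were shPKLR livers, the lowest being the deeply sequenced replicate 4, and the log2 fold change was 0.28 (SE 0.20, adjusted p = 0.481, edgeR).

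The low Cyp3a genes did not pass the test in the knockdown, and their positive values rested largely on shPKLR replicate 1. Cyp3a41a had 18.5, 3.53, 4.87, 2.29 and 5.12 CPM in shPKLR livers, against 3.22, 3.30, 3.18, 4.04 and 3.12 CPM in shLUC livers, so that replicate 1 carried most of the difference (log2 fold change 1.00, SE 0.46, adjusted p = 0.331, edgeR). Without shPKLR replicate 1 the log2 fold change of Cyp3a41a was 0.21. Cyp3a16 averaged 5.09 ± 4.00 CPM in shPKLR livers and 2.73 ± 1.19 CPM in shLUC livers (SD, n = 5 each; log2 fold change 0.88, adjusted p = 0.360, edgeR), and Cyp3a44 averaged 4.19 ± 2.84 CPM and 2.995 ± 0.688 CPM in the same groups (0.46, adjusted p = 0.592, edgeR). Without shPKLR replicate 1 the log2 fold change was 0.30 for Cyp3a16 and 0.0098 for Cyp3a44, and in limma-voom that of Cyp3a44 was -0.14. Cyp3a13 and Cyp3a25 gave log2 fold changes of 0.07 and 0.01 with an adjusted p of 0.866 and 0.968 (edgeR).

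Whether the effects of overexpression and knockdown differed was tested in 1 model of the 20 livers, where all 10 members passed the filter. The overexpression effect less the knockdown effect was past the threshold for 4 members, all negative, beside 5.50% of all 16407 genes called, 2.75% negative and 2.75% positive. At an unadjusted p under 0.05 there were 7 members, beside 25.7% of all genes. It came to -1.48 for Cyp3a11 (SE 0.32, adjusted p = 0.0112, edgeR), to -2.52 for Cyp3a16 (adjusted p = 0.0344), to -2.998 for Cyp3a41a (adjusted p = 0.0214) and to -2.09 for Cyp3a44 (adjusted p = 0.0444). With each of the 20 libraries left out in turn, Cyp3a11 and Cyp3a41a were called in 20 of 20 fits, Cyp3a16 in 10 and Cyp3a44 in 7. The call of Cyp3a16 was lost without shLUC replicates 1, 3 or 5, shPKLR replicate 1, GFP replicates 1 or 4, or PKLR replicates 1, 2, 4 or 5, with an adjusted p of up to 0.0820. That of Cyp3a44 was lost without any of the 5 shLUC replicates, shPKLR replicates 1 or 3, GFP replicates 1 or 4, or PKLR replicates 1, 2, 3 or 5, with an adjusted p of up to 0.0967. With no filter on low counts and in limma-voom, Cyp3a11 alone stayed past the threshold.

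The controls differed from each other as well. Pklr itself was lower in GFP than in shLUC livers, without overlap (log2 fold change -2.02, adjusted p = 0.00132, edgeR). GFP livers held more of 4 members than shLUC livers, where 5.81% of all 16407 genes were called, 3.47% higher and 2.33% lower, and 0 members were lower. At an unadjusted p under 0.05 there were 7 members, beside 19.7% of all genes. The log2 fold change of GFP against shLUC was 1.21 for Cyp3a11 (adjusted p = 0.00388, edgeR), 1.84 for Cyp3a16 (adjusted p = 0.0275), 1.88 for Cyp3a41a (adjusted p = 0.0350) and 1.64 for Cyp3a44 (adjusted p = 0.0249), and the call of Cyp3a11 remained in 20 of 20 fits with a library left out. The calls of Cyp3a16 and Cyp3a44 were each lost without shLUC replicates 1, 3 or 5 or GFP replicates 1 or 4, and that of Cyp3a41a without any shLUC replicate or GFP replicates 1 or 4. Without GFP replicate 1 the adjusted p was 0.121 for Cyp3a16, 0.102 for Cyp3a44 and 0.209 for Cyp3a41a, whose log2 fold change was then 1.12. Cyp3a11 averaged 841 ± 276 CPM in PKLR livers, 1922 ± 440.3 CPM in GFP livers, 1016 ± 297 CPM in shPKLR livers and 830.1 ± 69.0 CPM in shLUC livers (SD, n = 5 each). The GFP livers lay above every other liver, and the ranges of the other 3 groups overlapped one another. Among the gene lists with calls between the same controls were the stellate cell markers, genes of the collagen-producing cells of the liver. They had 7 of 8 positive and 4 higher (Col3a1, Col1a2, Col1a1 and Pdgfrb), where 54.7% of all genes were positive. The pericentral genes had 14 of 15 negative and 3 lower (Glul, Nkd1 and Lect2). Of 22 interferon response genes 21 were positive and 3 higher (Zbp1, Mx1 and Bst2). Of 11 periportal genes 9 were positive and 2 higher (Pck1 and Cdh1). Of 15 acute phase genes 11 were positive and 2 higher (Saa3 and Hpx). Their part in the Cyp3a difference was not tested. The vector and the experiment, which has its own table for each control, cannot be told apart in this comparison.

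Other lists were counted beside Cyp3a11 in the overexpression experiment, where 51.1% of all genes had a positive log2 fold change. By edgeR 1.19% of all genes tested rose and 0.846% fell. All 8 stellate cell markers had negative log2 fold changes in PKLR against GFP livers (median -0.72, 0 called), and their summed level was between 134 and 258 CPM in PKLR livers and between 209 and 449 CPM in GFP livers. Of 9 lymphocyte markers 8 were negative and Igkc, an immunoglobulin gene, fell. The macrophage (10 tested), endothelial (7), cholangiocyte (5), neutrophil (3), erythroid (5), intestine (3) and pancreatic acinar (1) markers held 0 calls by edgeR. No adipocyte marker was tested. Of 15 pericentral genes, which mark the hepatocytes around the central vein, 14 were positive (median 0.38) and Glul and Nkd1 rose; of 11 periportal genes 8 were negative (median -0.46) and Aldh1b1 fell. All 22 interferon response genes were positive (median 0.54) and 4 rose, among them Oasl1 (log2 fold change 1.07, adjusted p = 0.0188, edgeR). Of 15 acute phase genes Orm1 rose (0.68, adjusted p = 0.0259, edgeR), and the median was 0.04. Whether any of these had a part in the fall of Cyp3a11 was not tested. In bulk tissue, fewer cells of a type and less RNA per cell cannot be told apart.

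The receptor genes themselves did not pass the test in either experiment. Nr1i3 (chr1:171213970-171220701, plus strand, ENSMUSG00000005677) had 35.0, 23.9, 23.4, 20.4 and 19.1 CPM in PKLR livers, against 13.1, 10.1, 26.2, 19.1 and 21.8 CPM in GFP livers. It had 39.4, 39.4, 22.8, 27.5 and 19.0 CPM in shPKLR livers, against 20.7, 19.7, 34.5, 24.9 and 31.6 CPM in shLUC livers. Both pairs of groups overlapped widely, with a log2 fold change of 0.45 (SE 0.25, adjusted p = 0.372, edgeR) for the overexpression and 0.16 (SE 0.22, adjusted p = 0.721, edgeR) for the knockdown. Nr1i2, the PXR gene, had 56.3, 50.1, 53.4, 55.3 and 53.8 CPM in PKLR livers and 57.4, 56.7, 66.9, 76.3 and 72.9 CPM in GFP livers, which did not overlap by a margin of 56.3 to 56.7 CPM. Its log2 fold change was -0.28 (SE 0.09, adjusted p = 0.124, edgeR), and 0.31 in the knockdown (SE 0.13, adjusted p = 0.305, edgeR). In the joint model the overexpression effect less the knockdown effect was -0.61 for Nr1i2 (SE 0.15, adjusted p = 0.0262, edgeR). Nr1i2 also differed between the controls, being called higher in GFP than in shLUC livers by edgeR. It averaged 66.0 ± 8.89 CPM in GFP livers and 49.3 ± 5.64 CPM in shLUC livers (SD, n = 5 each).

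None of the 19 tested receptor partners and cofactors (median log2 fold change 0.10) and none of the 13 hepatocyte factors known to act on Nr1i3 or on P450 genes (median 0.27) was called in PKLR against GFP livers, and in the knockdown there were likewise 0 calls by edgeR in each list. Foxa1, a pioneer factor of the liver, came nearest at 0.59 (adjusted p = 0.104, edgeR). The 16 genes of P450 electron and haem supply held 0 calls by edgeR in either experiment. The overexpression effect less the knockdown effect was called positive for 2 of them, Cyb5r3 (1.07, adjusted p = 0.00257, edgeR) and Cyb5b (0.83, adjusted p = 0.0457, edgeR). Cyb5r3 was also lower in GFP than in shLUC livers (-0.73, adjusted p = 0.00307, edgeR). Por, the reductase that hands electrons to every microsomal P450, had 135, 89.6, 72.4, 110.6 and 110.0 CPM in PKLR livers, against 182, 126, 152, 179.6 and 189 CPM in GFP livers. PKLR replicate 1 reached into the GFP range, and the log2 fold change was -0.67 (SE 0.16, adjusted p = 0.0649, edgeR).

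Other targets of CAR or PXR went both ways. Of 33 tested, 2 rose and 2 fell in PKLR against GFP livers, beside 1.19% and 0.846% of all genes. Their median log2 fold change was -0.01. Cyp2c37, a P450 of arachidonic acid metabolism, rose to 188, 229.5, 269, 134 and 264 CPM in PKLR livers, against 24.6, 34.6, 69.6, 40.05 and 76.1 CPM in GFP livers (log2 fold change 2.16, SE 0.33, adjusted p = 0.0139, edgeR). Every PKLR liver stood above every GFP liver for this gene, the opposite order to Cyp3a11. Ugt1a1, the bilirubin-conjugating enzyme gene, averaged 47.9 ± 8.10 CPM in PKLR livers and 28.4 ± 6.76 CPM in GFP livers (log2 fold change 0.77, adjusted p = 0.0430, edgeR). Gstm3, a glutathione transferase gene, averaged 46.2 ± 16.0 CPM in PKLR livers and 168 ± 77.8 CPM in GFP livers (-1.85, adjusted p = 0.0320, edgeR). Cyp2c55, a low P450 gene, averaged 1.90 ± 0.146 CPM in PKLR livers and 3.37 ± 0.530 CPM in GFP livers (-0.82, adjusted p = 0.0188, edgeR; SD, n = 5 each). In the knockdown 0 of 33 were called by edgeR. The overexpression effect less the knockdown effect was called positive for 4 and negative for 6, beside 2.75% of all genes in each direction. Between the controls 7 of these 33 were higher and 4 lower in GFP than in shLUC livers, beside 3.47% and 2.33% of all genes. Cyp2c37 was among the lower ones (-2.06, adjusted p = 0.00309, edgeR) and Gstm3 among the higher ones (2.07, adjusted p = 0.00202, edgeR).

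Cyp2b10, the classical CAR target, was a low transcript in all 4 groups. It lies at chr7:25897620-25926624 on the plus strand (ENSMUSG00000030483). Its level was 2.33, 0.206, 3.51, 0.921 and 0.880 CPM in PKLR livers, against 2.25, 0.308, 0.693, 2.91 and 1.52 CPM in GFP livers, with full overlap (log2 fold change 0.05, SE 0.69, adjusted p = 0.977, edgeR). In the knockdown it was 0.871, 0.688, 0.750, 0.375 and 0.0598 CPM in shPKLR livers, against 2.39, 0.761, 2.48, 0.933 and 3.21 CPM in shLUC livers. Only shPKLR replicate 1 reached above the lowest shLUC liver, and the log2 fold change was -1.88 (SE 0.53), but the adjusted p of 0.224 by edgeR did not pass. DESeq2 gave an adjusted p of 0.0184, and over all the other settings and with each library left out the adjusted p ranged up to 0.395. The counts behind these values were between 2 and 148 reads per library.

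Cyp2b9 and Cyp2b13 were the members that varied most from liver to liver. Cyp2b9 (chr7:26173411-26210661, plus strand, ENSMUSG00000040660) had 68.0, 0.618, 92.8, 1.57 and 0.493 CPM in PKLR livers, against 1.74, 0.103, 1.92, 1.25 and 0.244 CPM in GFP livers. PKLR replicates 1 and 3 held nearly all of the group's transcript, and the other 3 PKLR livers lay within the GFP range. In shPKLR livers it had 31.2, 1.75, 0.170, 3.31 and 0.329 CPM, against 3.36, 8.15, 32.1, 13.8 and 27.7 CPM in shLUC livers. Replicate 1 alone was high among the shPKLR livers. The highest PKLR liver held 188 times the level of the lowest, and the shPKLR livers spanned a factor of 183, where Cyp3a11 spanned a factor of 2.26 in PKLR livers.

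Differences of Cyp2b9 between groups did not pass the edgeR test. Its log2 fold change was 4.98 in PKLR against GFP livers (SE 1.53, adjusted p = 0.117, edgeR) and -1.23 in shPKLR against shLUC livers (SE 1.03, adjusted p = 0.545, edgeR). With 1 library left out the first ranged over 4.08 to 5.30 and the second over -3.48 to -0.857, where -3.48 was the value without shPKLR replicate 1. Without PKLR replicates 1 and 3 together the log2 fold change of PKLR against GFP was -0.22, a setting chosen after the values were seen. DESeq2 called the overexpression difference at an adjusted p of 0.00871, and over the other settings the adjusted p reached 0.929. Cyp2b13 (chr7:26061497-26096197, plus strand, ENSMUSG00000040583) repeated the pattern at a lower level, with 3.28, 0, 3.24, 0.0297 and 0.0352 CPM in PKLR livers and 0.116, 0, 0.0315, 0.163 and 0.0271 CPM in GFP livers. It had 1.16, 0.0626, 0.0341, 0.135 and 0 CPM in shPKLR livers, against 0.138, 0.349, 1.21, 0.249 and 1.02 CPM in shLUC livers. In the 3 libraries without a read, PKLR replicate 2, GFP replicate 2 and shPKLR replicate 5, a count of 0 allows a level of up to 0.0883, 0.0769 and 0.0898 CPM (3 counts, counting error only). GFP livers lay below shLUC livers for Cyp2b9 without overlap, at a log2 fold change of -4.02 (adjusted p = 0.110, edgeR). DESeq2 called this difference at an adjusted p of 0.0282, as did the edgeR fit without PKLR replicates 1 and 3, at 0.0362, and with 1 library left out the adjusted p reached 0.222. In the joint model, where Cyp2b13 passed the filter, the overexpression effect less the knockdown effect was 5.38 for Cyp2b13 (adjusted p = 0.0717, edgeR) and 6.19 for Cyp2b9 (adjusted p = 0.0596, edgeR). The Cyp2b9 value was called in DESeq2 (adjusted p = 0.0144) and by edgeR without shPKLR replicate 1 (8.40, adjusted p = 0.0124), PKLR replicate 2 (adjusted p = 0.0461) or PKLR replicate 5 (adjusted p = 0.0498), and its adjusted p reached 0.750 without PKLR replicates 1 and 3. That of Cyp2b13 was called without shPKLR replicate 1 (7.10, adjusted p = 0.0230) and was -0.43 without PKLR replicates 1 and 3.

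The start regions of these 2 genes are nearly the same, which is why they are shown beside that of Cyp2b10. The windows run from 250 bases before to 50 bases after the RefSeq start on the plus strand (GRCm38.p6), and capitals again mark AGNTCA half-sites.
Cyp2b9, chr7:26173159-26173458: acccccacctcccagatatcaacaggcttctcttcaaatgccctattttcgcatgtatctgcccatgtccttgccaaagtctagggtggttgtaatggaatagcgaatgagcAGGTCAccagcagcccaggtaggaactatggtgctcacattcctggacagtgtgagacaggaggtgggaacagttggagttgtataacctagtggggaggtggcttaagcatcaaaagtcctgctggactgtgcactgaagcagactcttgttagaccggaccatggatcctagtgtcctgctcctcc
Cyp2b13, chr7:26061245-26061544: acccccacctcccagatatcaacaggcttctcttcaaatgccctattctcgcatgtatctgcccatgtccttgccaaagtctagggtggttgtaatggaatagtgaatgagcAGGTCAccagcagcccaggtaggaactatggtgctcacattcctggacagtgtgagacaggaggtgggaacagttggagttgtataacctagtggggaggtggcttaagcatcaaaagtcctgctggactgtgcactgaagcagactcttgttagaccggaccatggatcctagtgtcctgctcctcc
Cyp2b10, chr7:25897408-25897707: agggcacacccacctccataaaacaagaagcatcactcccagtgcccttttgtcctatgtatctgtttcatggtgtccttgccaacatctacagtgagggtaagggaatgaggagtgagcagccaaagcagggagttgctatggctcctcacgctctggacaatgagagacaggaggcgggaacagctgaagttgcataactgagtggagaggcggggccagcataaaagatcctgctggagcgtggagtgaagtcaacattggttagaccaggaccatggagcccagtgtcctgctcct
Cyp2b9 and Cyp2b13 were equal at 298 of 300 positions, and each held 1 half-site at -138. The Cyp2b10 window aligned to that of Cyp2b9 at 71.7% identity and held no match to any of the letters searched. Further upstream sequence was not examined, so that no match here says only that these letters are not in this window. The transcripts of Cyp2b9 and Cyp2b13 were 89.2% identical, and 10.8% of the 50-base windows of Cyp2b9 occur in Cyp2b13. The Cyp2b13 count was between 0 and 0.200 times the Cyp2b9 count over the 20 livers, with a median of 0.0375.

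Liver by liver, Cyp2b13 followed Cyp2b9 with r = 0.93 over 20 livers after the group means were removed (permutation within groups, p = 2e-05, adjusted p = 0.00014 over the same 7 relations; rho 0.89, p = 3e-05). Leaving out the 2 livers farthest from the median gave r = 0.90, and the value was 0.94 in the overexpression livers and 0.93 in the knockdown livers. Cyp2b10 followed Cyp2b9 less closely, at r = 0.61 (permutation p = 0.0167, adjusted p = 0.0233; rho 0.62, p = 0.0158), with 0.75 in the overexpression livers and 0.40 in the knockdown livers.

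**Figure D4:**
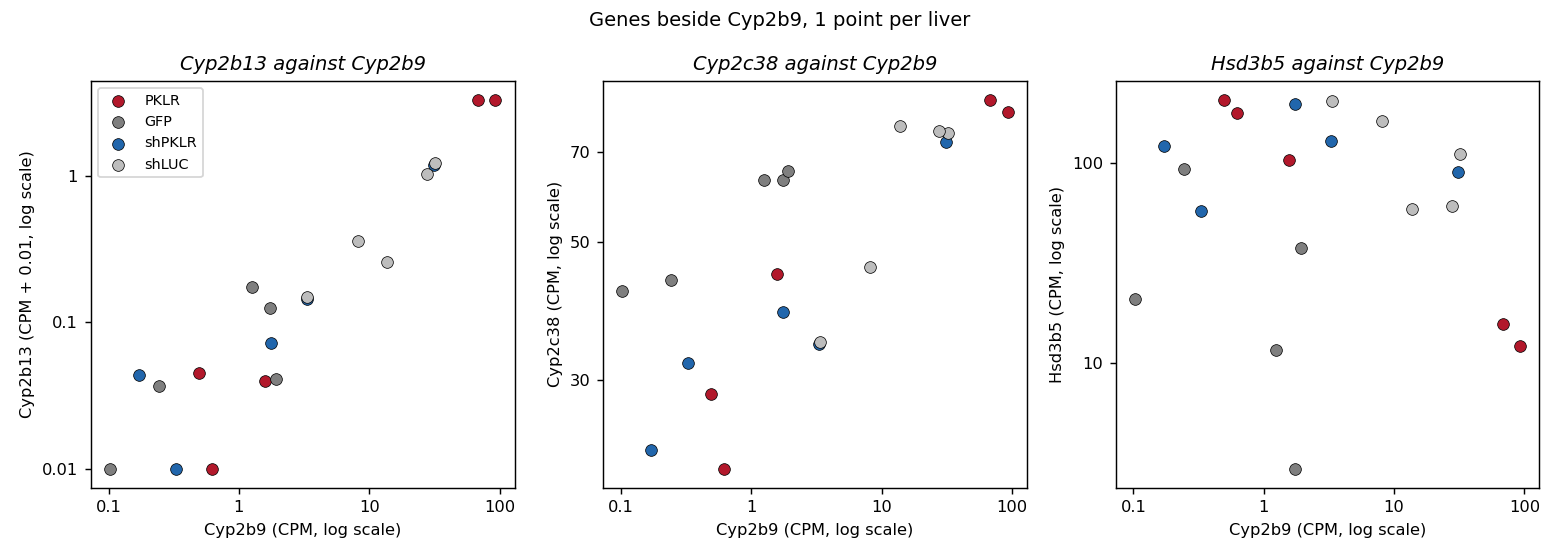
Cyp2b13, Cyp2c38 and Hsd3b5 against Cyp2b9, in CPM on log axes (Cyp2b13 plus 0.01), with 1 point per liver. Cyp2b13 and Cyp2c38 climb with Cyp2b9, and the 2 PKLR livers at the far right have the lowest Hsd3b5 of their group.

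The gene most like Cyp2b9 among 13254 genes outside the members was Cyp2c38, a P450 of the Cyp2c family, at r = 0.93 (rho 0.90). Next came Slc22a27 (r = 0.85), an organic anion transporter family gene, and Slc17a4 (r = 0.84), a further transporter gene. Cyp2c38 had 85.0, 21.5, 81.2, 44.5 and 28.4 CPM in PKLR livers and 63.1, 41.7, 65.0, 63.0 and 43.4 CPM in GFP livers. It had 72.5, 38.5, 23.1, 34.3 and 31.96 CPM in shPKLR livers and 34.5, 45.7, 75.0, 77.1 and 75.7 CPM in shLUC livers. PKLR replicates 1 and 3 and shPKLR replicate 1, the livers with the highest Cyp2b9 of their groups, were also the highest of their groups for Cyp2c38. In GFP livers replicate 3 was the highest for both genes. In shLUC livers Cyp2c38 was highest in replicate 4, where Cyp2b9 stood at 13.8 CPM. Cyp2b9 was highest there in replicate 3, at 32.1 CPM. For Cyp2b10 the most similar gene was Acnat2 (r = 0.85), an acyltransferase gene, then Fmo1 (r = 0.82) and Cyp2a22 (r = 0.76).

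Genes known to differ between male and female liver lined up with Cyp2b9 from liver to liver. Of 23 male-biased genes, 23 had a negative r with Cyp2b9 (median -0.58), and of 14 female-biased genes 13 had a positive r (median 0.43), while over all 13262 genes of at least 1 CPM 6822 were negative (median -0.01). In the overexpression livers alone 22 of the 23 male-biased genes were negative and 12 of the 14 female-biased genes positive; in the knockdown livers alone the counts were 21 and 11. The 37 relations share the same livers and the same Cyp2b9 values, so that the genes are not independent. The strongest single relation was with C6, a male-biased complement gene, at r = -0.88 (permutation within groups, p = 6e-05, adjusted p = 0.00222 over 37; rho -0.86, p = 2e-05), and r = -0.84 without the 2 livers farthest from the median. It was -0.97 in the overexpression livers and -0.74 in the knockdown livers. Cyp7b1, the male-biased oxysterol hydroxylase, gave r = -0.80 (adjusted p = 0.00352, permutation; rho -0.80), with -0.96 in the overexpression livers and -0.57 in the knockdown livers. Prlr, the female-biased prolactin receptor gene, gave r = 0.71 (adjusted p = 0.00638, permutation; rho 0.80), with 0.78 and 0.58 in the same 2 sets of livers. These genes were named after their values were seen.

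Hsd3b5, a steroid dehydrogenase gene expressed in male mouse liver, ran opposite to Cyp2b9 in the overexpression livers. It had 15.6, 178, 12.1, 104 and 208 CPM in PKLR livers, where replicates 1 and 3 were the 2 lowest, against 2.93, 21.0, 37.7, 11.6 and 92.8 CPM in GFP livers. In shPKLR livers it had 90.0, 198, 121, 129 and 57.3 CPM, against 204, 162, 111, 58.8 and 60.9 CPM in shLUC livers. Its r with Cyp2b9 was -0.63 (permutation p = 0.0158, adjusted p = 0.0366; rho -0.53, p = 0.0432, adjusted p = 0.0733), so that r passed the correction and rho did not. It was -0.80 in the overexpression livers and -0.18 in the knockdown livers. As a check of the sex of the animals, the X-inactivation transcript Xist was at most 0.464 CPM and the Y-linked Ddx3y at least 17.3 CPM in every liver.

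**Figure D5:**
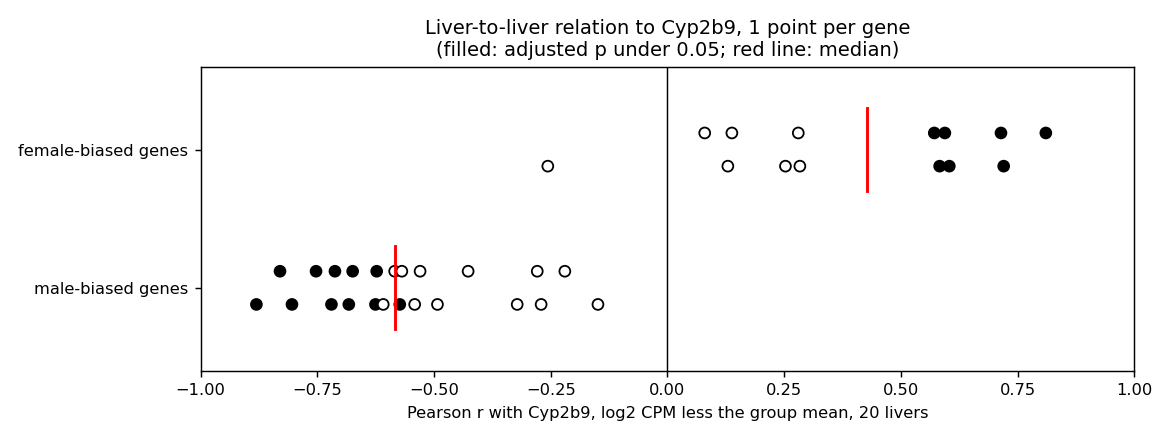
Pearson r of each sex-biased gene with Cyp2b9 over the 20 livers, on log2 CPM less the group mean, with 1 point per gene and a red line at the median. All 23 male-biased genes lie left of 0 (median -0.58) and 13 of 14 female-biased genes lie right of it (median 0.43).

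The sex-biased genes were also counted as groups. In PKLR against GFP livers 20 of 24 male-biased genes were positive (median 0.51), beside 51.1% of all genes. Of the 24 male-biased genes 1 rose, Cyp2d9 at 1.17 (SE 0.26, adjusted p = 0.0469, edgeR), beside 1.19% of all genes. Of 16 female-biased genes outside the members 0 were called (median -0.06). The 13 genes of growth hormone and STAT5 signalling, the pathway known to set these sex differences, held 0 calls (median 0.15). Between the controls 5 of the 24 male-biased genes were lower in GFP than in shLUC livers, beside 2.33% of all genes. These were Cyp2d9, Susd4, Mup3, Mup7 and Mup1, and the median over the 24 was -0.40. Of the 13 genes of growth hormone and STAT5 signalling, 2 were lower in the same comparison, Igfals and Ghr, and the median was 0.06. In the knockdown all 3 lists held 0 calls by edgeR, with medians of 0.21, -0.17 and -0.07. Cyp3a41a and Cyp3a44, the female-predominant Cyp3a members, gave r = 0.46 and 0.37 with Cyp2b9 over the 20 livers. Their rho was 0.31 and 0.40. The other Cyp3a members gave r = 0.54 (Cyp3a16), 0.35 (Cyp3a11), 0.06 (Cyp3a25) and -0.35 (Cyp3a13), so such values were not particular to Cyp3a41a and Cyp3a44. All of these are given without a test. The median r of the 14 female-biased genes with Cyp2b9 was 0.43.

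Of 8 P450 genes compared with Nr1i3, Cyp2b9 was the one whose relation passed the correction. Over 20 livers with group means removed, r was 0.61 for Nr1i3 with Cyp2b9 (permutation within groups, p = 0.00356, adjusted p = 0.0285 over 16 relations; rho 0.63, p = 0.00568, adjusted p = 0.0454), and 0.58 without the 2 livers farthest from the median of Nr1i3. It was 0.49 in the overexpression livers and 0.80 in the knockdown livers. With Cyp3a25 r was nearly the same at 0.61 (permutation p = 0.0192, adjusted p = 0.0767; rho 0.56, p = 0.0294), with 0.73 in the overexpression livers and 0.42 in the knockdown livers. With Cyp2b10 r was 0.47 (permutation p = 0.0576, adjusted p = 0.132; rho 0.43, p = 0.0804), and with Cyp3a11 it was -0.18 (permutation p = 0.491; rho -0.14).

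For Nr1i2 the relation to Cyp3a25 passed the correction, and the other 7 did not. Its r with Cyp3a25 was 0.69 (permutation within groups, p = 0.00243, adjusted p = 0.0285 over the same 16 relations; rho 0.72, p = 0.00181, adjusted p = 0.0290), 0.72 without the 2 livers farthest from the median, 0.90 in the overexpression livers and 0.56 in the knockdown livers. With Cyp3a11 it was -0.35 (permutation p = 0.158, adjusted p = 0.315; rho -0.31, p = 0.204). Between these 2 experiments the values differed, at -0.01 in the overexpression livers and -0.67 in the knockdown livers, and that difference was not tested. With Cyp3a16 r was -0.60 (permutation p = 0.013, adjusted p = 0.0696; rho -0.52), with Cyp3a41a -0.59 (permutation p = 0.0294, adjusted p = 0.0940; rho -0.37) and with Cyp3a44 -0.52 (permutation p = 0.0459, adjusted p = 0.122; rho -0.39). In the knockdown livers these 3 were -0.88, -0.80 and -0.86, and in the overexpression livers -0.25, -0.35 and 0.06.

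Of the other genes of the 2 families, Cyp2b19 was counted with at most 2 reads in any library, and Cyp2b23 was listed in neither count table. Cyp3a59, a Cyp3a25 paralog, averaged 38.1 ± 9.29 CPM in PKLR livers and 41.9 ± 15.5 CPM in GFP livers, and 37.6 ± 6.11 CPM in shPKLR livers and 36.5 ± 7.69 CPM in shLUC livers (SD, n = 5 each). Its count was between 0.0805 and 0.134 times that of Cyp3a25, with which 24.7% of its 50-base windows are shared. Cyp3a57 stayed under 1 CPM in every liver.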

How the data were processed

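RNA was total RNA of frozen liver, made into stranded libraries, per the labels' protocols. The deposited tables hold read counts per gene, 1 table for each experiment, and the submitters' processing notes name HISAT2, DESeq2, GRCm38 and mm10 without versions. The sources used here do not name the counting program, the annotation, the strand setting or the treatment of reads that fit several genes. The 10 members and all gene lists were chosen with earlier results of these data known. There were 27052 genes listed for the knockdown and 26286 for the overexpression, with 25238 in both, and each listed gene has at least 2 reads in its table.

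Counts were tested as deposited with edgeR 4.0.16 (robust quasi-likelihood, TMM, filterByExpr with a minimum count of 10) in R 4.3.3, within each table, with Benjamini-Hochberg adjustment over all genes tested and a threshold of 0.05. The difference of the effects and GFP against shLUC came from 1 model of the 20 livers on shared genes. Each standard error is the log2 fold change divided by the square root of F. Liver-to-liver relations used log2 CPM with a prior count of 2 less the group mean, and 100000 permutations within groups, whose smallest possible p is 1e-05. Genes outside the members were named by a rule, up to 3 called genes of smallest p in each list or, with none called, the 2 of smallest p, and the 3 genes most like each member. Exceptions are stated, and 1 result is not reported here. Promoters are from RefSeq (GRCm38.p6), where 10 of 10 members matched. DESeq2 1.42.0, limma 3.58.1 (voom), other scalings and filters, a replicate block, a thinned shPKLR replicate 4 and each library left out were alternatives. The edgeR step was tested on simulated data.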

Additional observations from a re-analysis of the deposited data

Results flagged for a closer look

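A sample far from the others of its group was found in 5 of 40 groups examined, where chance flags about 1 in 20 groups if values are normally distributed. Cyp2b9 stood at 31.2 CPM in shPKLR replicate 1, where the next liver had 3.31 CPM, and Cyp2b13 at 1.16 CPM in the same liver, where the next had 0.135 CPM. Cyp3a41a stood at 32.5 CPM in GFP replicate 1 (next 10.3 CPM), at 18.5 CPM in shPKLR replicate 1 (next 5.12 CPM) and at 4.04 CPM in shLUC replicate 4 (next 3.30 CPM).

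The effects of overexpression and knockdown differed by the test of the difference itself for 4 members. The overexpression effect less the knockdown effect was -1.48 for Cyp3a11, -2.52 for Cyp3a16, -2.998 for Cyp3a41a and -2.09 for Cyp3a44 on the log2 scale.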

How the results depend on the processing

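Members called in PKLR against GFP livers numbered 2, against 1 with no filter on low counts, 5 in DESeq2, 1 in limma-voom and 1 without PKLR replicates 1 and 3 together. In shPKLR against shLUC livers 0 became 1 in DESeq2. For the difference of the effects 4 became 1 with no filter, 1 in limma-voom and 1 with the replicate block, and for GFP against shLUC 4 became 2 with no filter and 2 in limma-voom. With 1 library left out these counts were 0 to 2, 0 to 0, 2 to 4 and 1 to 4 in that order. Genes called in the knockdown, 1 in all, numbered 7 with RLE size factors, 17 with no filter, 268 in DESeq2, 8 in limma-voom, 3 with the replicate block, 114 in 1 fit of all 20 libraries, 7 with shPKLR replicate 4 thinned and 1 to 12 with 1 library left out. In the overexpression 322 became 1158 in DESeq2, 544 with the replicate block, 149 without PKLR replicates 1 and 3 and 128 to 469 with 1 library left out. For the difference 902 became 1614 in DESeq2, 413 without PKLR replicates 1 and 3 and 485 to 1384 with 1 library left out, and for GFP against shLUC 953 ranged over 415 to 1315. The cause of these changes was not tested, apart from the fewer libraries where some were left out.

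Same-numbered livers did not deviate together (correlations of -0.20 to 0.35 in the knockdown and -0.11 to 0.26 in the overexpression), so the numbers do not pair the livers. Signs that changed were all of values that had not passed the test. Cyp3a25 turned to -0.0074 in DESeq2 in the knockdown, to 0.036 in limma-voom and 0.042 with the replicate block in the overexpression, and to -0.0084 in limma-voom in GFP against shLUC. With 1 library left out Cyp3a25 ranged over -0.069 to 0.086 in the knockdown, -0.20 to 0.15 in the overexpression, -0.23 to 0.11 for the difference and -0.12 to 0.22 for GFP against shLUC. Cyp3a13 ranged over -0.045 to 0.19 in the knockdown and Cyp2b10 over -0.49 to 0.41 in the overexpression. Cyp2b10 in the overexpression was -0.070 in limma-voom, -0.10 with the replicate block and -1.21 without PKLR replicates 1 and 3, where Cyp2b9 was -0.22 and the Cyp2b13 difference -0.43. Cyp3a44 in the knockdown was -0.14 in limma-voom. As a ratio to Cyp3a11, Cyp3a44 was -0.047 and Cyp3a25 -0.20 in the knockdown, and Cyp3a25 1.26 in the overexpression. Few reads limit Cyp2b10 and Cyp2b13.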
